A study of Mus musculus with 6 samples.

Results

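The nuclear genes of respiratory chain complexes II to V, with cytochrome c, were examined in N2a cells after silencing of circRtn4. N2a (Neuro2A) is a mouse neuroblastoma line, here labelled with the strain C57BL/6. Members were the genes with the biotype protein coding whose symbols are Sdha, Sdhb, Sdhc, Sdhd, Cyc1 or Cycs, or begin with Sdhaf, Uqcr, Cox and a digit, or Atp5. They numbered 63 of the 54532 genes in the table, of which 22046 are protein coding. RNA was sequenced in 3 libraries from cells transfected with si-NC, the control siRNA, and 3 from cells transfected with si-circRtn4, an siRNA against the circular RNA of the Rtn4 gene. The labels give the growth medium as Minimum Essential Medium with serum. The study's methods describe retinoic acid differentiation of transfected N2a cells in general, so the state of these cells is not settled by the labels. Nothing in the labels says whether the 3 libraries of a group came from separate cultures, so p-values measure the spread between these libraries. Values are FPKM, the fragments on a gene scaled by its length and by library depth.

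Oxidative phosphorylation passes electrons along complexes of the inner mitochondrial membrane and uses the resulting proton gradient to make ATP. Complex II is succinate dehydrogenase, which is also an enzyme of the citric acid cycle. Complex III hands electrons to cytochrome c, complex IV passes them to oxygen, and complex V is the ATP synthase. Complexes III, IV and V join a few subunits encoded in mitochondrial DNA to many encoded in the nucleus, whereas complex II is wholly nuclear. Neurons draw heavily on this pathway.

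Of the 63 members, 57 reached 1 FPKM on average across the 6 libraries and were tested. In the si-circRtn4 libraries 5 of them fell at an adjusted p under 0.05 and none rose, by limma on log2(FPKM + 1) with Benjamini-Hochberg adjustment over all 12749 genes tested. Limma-voom on reads recovered from FPKM called the same 5. They were Cox7a1 and Cox6a1 of complex IV, Sdhd and Sdha of complex II, and Uqcrh of complex III. They make up 8.77% of the members tested, where 4.82% of all genes tested were lower and 4.36% higher. With replicate numbers as a block, 6 members (10.5%) were lower and none higher, where 9.75% of all genes tested were lower and 9.29% higher, so the share of members was then near that of all genes. At an unadjusted p under 0.05, 12 members were lower (21.1%, against 12.8% of all genes tested) and 1 was higher, Cox19 (against 13.1% of all genes). The log2 fold change was below 0 in 43 members (75.4%), against 49.6% of all genes tested. The median over the members was -0.11, and over all genes it was 0.002. In 16 members (28.1%) every si-circRtn4 library was below every si-NC library, as in 15.5% of all genes tested, and in 1 member, Cox19, every one was above, as in 16.2% of all genes. With every gene above 0 in the fit, in place of those averaging 1 FPKM or more, limma called none of 61 members, and 10 were lower and 2 higher at an unadjusted p under 0.05.

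Summed over the 63 members, FPKM was 5314, 5372 and 5357 with si-NC and 4442, 5173 and 4981 with si-circRtn4. All si-circRtn4 sums were below all si-NC sums, and the mean sum was 91.0% of the control. In bulk RNA, fewer cells with a message and less message per cell cannot be told apart.

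The 3 si-circRtn4 libraries did not contribute equally. Replicate 1 was the lowest of the 6 libraries for 36 of the 57 members (63.2%), against 19.5% of all genes tested. The median difference of the members to the si-NC mean, on the log2(FPKM + 1) scale, was -0.20 in that library and -0.02 and -0.06 in replicates 2 and 3. Without it, 36 of 57 members were still below 0 and their median was -0.05. Members called lower then numbered 1, Cox7a1. Without si-NC replicate 1 the calls numbered 3, and without si-NC replicate 2 or 3 or si-circRtn4 replicate 3 they numbered 1. Without si-circRtn4 replicate 2 there were 4, including Sdhaf4.

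**Figure D1:**
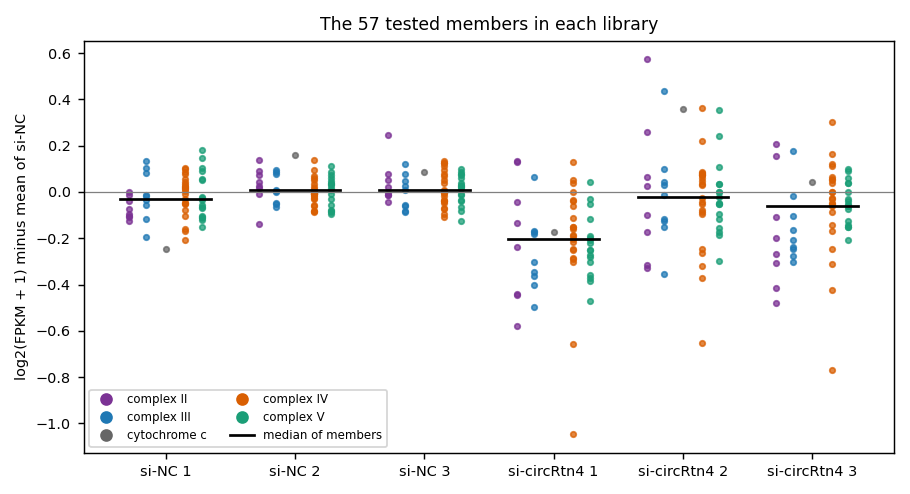
Each point is a tested member in 1 library, as log2(FPKM + 1) minus its mean over the 3 si-NC libraries, coloured by complex; black bars are medians over the 57 members. The median bar sits at -0.20 in si-circRtn4 replicate 1 and at -0.02 and -0.06 in replicates 2 and 3.

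The libraries held 14100818 to 14748929 reads on genes with si-NC and 13541198 to 15122063 with si-circRtn4, recovered from FPKM and gene length. Gm23935, a gene of 57 bases annotated as a miRNA, took 20.1% to 20.7% of all FPKM with si-NC and 13.5% to 18.8% with si-circRtn4. With FPKM sums made equal over the libraries (TPM), 31 of 57 members were below 0 and their median was -0.02, where the median of all genes was 0.08. The calls then became 3 lower members and 1 higher, Cox19, and the genes called over the whole table were 400 lower and 977 higher in place of 615 and 556. With Gm23935 taken out before that rescaling, the same 5 members were called and 42 of 57 were below 0. Rtn4 was at 61.0, 66.8 and 69.8 FPKM with si-NC and at 50.1, 56.7 and 62.7 with si-circRtn4. The ranges overlapped, and the adjusted p was 0.216 from limma, or 0.0447 with the replicate numbers as a block. These reads join linear and circular RNA, so they do not check the knockdown. Of the 9 tested markers of N2a cells 7 were below 0, with a median of -0.23. Chga and Phox2a fell, at -1.57 and -0.53 (adjusted p = 0.000641 and 0.021 by limma), and Mycn was at 0.60 (adjusted p = 0.0527, or 0.0068 with the block). Markers of fibroblasts, astrocytes, microglia and endothelium summed to 0.786 FPKM or less for each list in every library, with Aqp4 at 0 throughout.

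The members were also set beside the short RNAs of the design. The study places circRtn4 upstream of miR-24-3p, and an siRNA can pair with other messages through its seed, bases 2 to 8. The guide strand of si-circRtn4 is taken here as the reverse complement of the strand listed by the study, which is an assumption. The seeds are in capitals.
mmu-miR-24-3p: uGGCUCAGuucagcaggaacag
si-circRtn4 guide: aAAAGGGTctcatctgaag
A message pairs with these seeds where it reads CTGAGCC or ACCCTTT. With 1 UTR taken per gene, the longest annotated at the 3′ end, CTGAGCC occurred in 8 of the 57 members tested (14.0%) and in 19.6% of the 10688 protein-coding genes tested that have such a UTR. ACCCTTT occurred in 4 members (7.02%) and in 12.5% of those genes. The members' UTRs were shorter, with a median of 288 bases against 1170. A match is a description of the letters and not a site shown to be used.

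Of the 5 members that fell, Sdha held both letter strings and Cox6a1 held ACCCTTT, while Sdhd, Uqcrh and Cox7a1 held neither. Those 3 matches are shown with 8 bases on each side (capitals mark the match), beside 1 in Cox7a2l, which did not pass the test. All are on the minus strand of GRCm38.
Sdha, chr13:74322383-74322405: agagcaagCTGAGCCttccccat
Sdha, chr13:74322255-74322277: ccaaataaACCCTTTctcaaagt
Cox6a1, chr5:115345751-115345773: ccacgaaaACCCTTTggatgcta
Cox7a2l, chr17:83502551-83502573: tggcacaaACCCTTTgaatcctc
Cox7a2l also holds CTGAGCC, and its log2 fold change was -0.14 (adjusted p = 0.453, limma). Atp5s, the fourth member with ACCCTTT, was at 0.03 (adjusted p = 0.865, limma). Cox19, the assembly factor with the most matches to miR-24-3p among the members (3 in its UTR), was at 0.27 (adjusted p = 0.0874, limma). Atp5g1 held 2 and was at 0.04 (adjusted p = 0.86, limma). Of the other 4 members with CTGAGCC, Sdhaf2, Sdhc, Atp5d and Cox17 were at -0.19, -0.12, -0.12 and -0.02 (adjusted p 0.151 to 0.943 by limma). Among the 4 members with ACCCTTT, Atp5s was above 0, and among the 8 with CTGAGCC, Cox19 and Atp5g1 were. Of all 57 tested members 43 (75.4%) were below 0 and 14 above, so members with either string were below 0 about as often. Whether either string bears on these values was not tested.

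**Figure D2:**
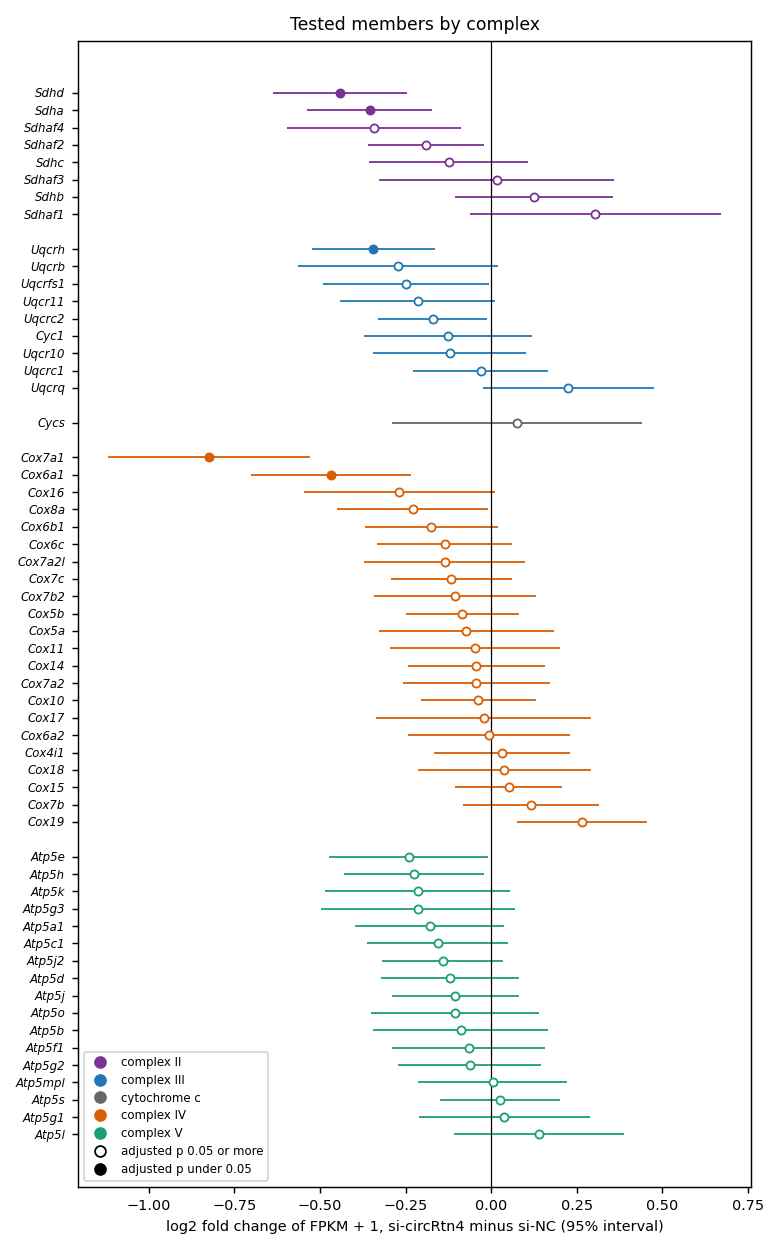
Points are log2 fold changes of FPKM + 1, si-circRtn4 minus si-NC, for the 57 tested members grouped by complex, with 95% intervals from limma; filled points have an adjusted p under 0.05. The 5 filled points lie between -0.82 and -0.34, and 43 of 57 points are below 0.

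In complex II, 5 of the 8 members were below 0, with a median of -0.16 (-0.07 under TPM), and 2 fell. Sdhd, the gene of one of the membrane anchors (ENSMUSG00000000171, minus strand, chr9:50596357-50603812), was at 81.3, 83.9 and 78.9 FPKM with si-NC and at 54.1, 64.6 and 60.7 FPKM with si-circRtn4. Every si-circRtn4 value was below every si-NC value. The means were 81.4 ± 2.50 and 59.8 ± 5.28 FPKM (SD, n = 3 each), so that 73.5% remained. On the log2 scale Sdhd fell by 0.44 (SE 0.0842), with an adjusted p of 0.0206 from limma. By exact permutation (two-sided) p was 0.1, the smallest that 3 libraries against 3 allow, here and for the other 4 members that fell. Without si-NC replicate 2 or 3 or si-circRtn4 replicate 1 or 3 the adjusted p of Sdhd was 0.0856, 0.0546, 0.0515 and 0.054.

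Sdha, the flavoprotein that oxidises succinate (ENSMUSG00000021577, minus strand, chr13:74322254-74350280), was at 74.3, 83.5 and 80.6 FPKM with si-NC and at 58.2, 63.6 and 63.9 FPKM with si-circRtn4. Both groups were again apart, with means of 79.5 ± 4.72 and 61.9 ± 3.19 FPKM (SD, n = 3 each). Sdha fell by 0.35 on the log2 scale (SE 0.0786, adjusted p = 0.0333 by limma). The call was lost under TPM (adjusted p = 0.0689) and when any library but si-NC replicate 1 was left out, where the adjusted p was 0.068 to 0.129.

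Sdhb, the iron-sulphur subunit that takes electrons from Sdha, was at 105.5, 115.7 and 120.0 FPKM with si-NC and at 110.3, 136.2 and 126.7 with si-circRtn4. The groups overlapped. The log2 fold change was 0.13 (95% interval -0.11 to 0.36, adjusted p = 0.482 by limma), and it was above 0 in all 13 alternatives. Sdhc, the other membrane anchor, was at 33.0, 37.1 and 34.4 FPKM and then at 29.3, 36.5 and 30.2 FPKM, again with overlap. The ratio of Sdhb to Sdhd, chosen after the values were seen and given as a description, was 1.30, 1.38 and 1.52 with si-NC and 2.04, 2.11 and 2.09 with si-circRtn4. The ratio of Sdha to Sdhd was 0.913 to 1.02 and 0.985 to 1.08. The groups were thus apart in the proportion of Sdhb to Sdhd and overlapped in that of Sdha to Sdhd.

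**Figure D3:**
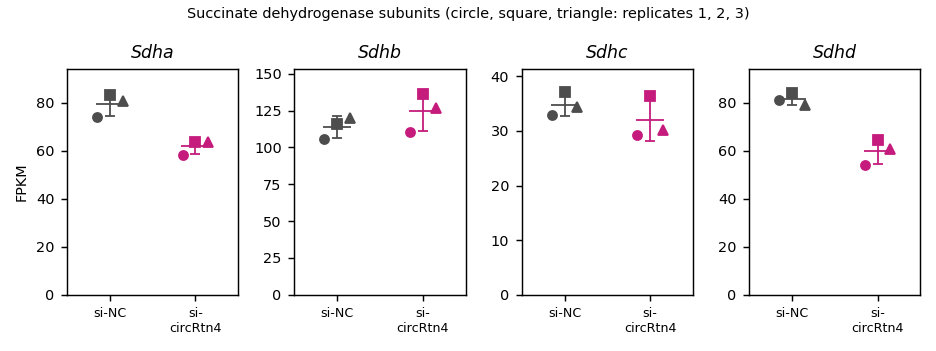
FPKM of the 4 succinate dehydrogenase subunits in each library, with the mean and SD of 3 libraries; circles, squares and triangles are replicates 1, 2 and 3. The groups are apart for Sdha and Sdhd and overlap for Sdhb and Sdhc.

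The 4 complex II assembly factors went different ways. Sdhaf4, which acts on Sdha before it is built in, was at 16.1, 16.4 and 17.2 FPKM and then at 11.9, 15.4 and 11.6 FPKM, without overlap (log2 fold change -0.34, adjusted p = 0.0985 by limma). It passed the test only when si-circRtn4 replicate 2 was left out, among the fits that left out 1 library. Sdhaf2, which attaches the flavin to Sdha, was at 7.38 to 7.57 FPKM and then at 6.02 to 6.72 FPKM, without overlap (adjusted p = 0.151, limma). Sdhaf1, which serves the iron-sulphur clusters of Sdhb, had the largest positive change of all tested members, 0.30 (adjusted p = 0.274, limma). It was at 1.06, 1.48 and 1.23 FPKM with si-NC and at 1.47, 2.35 and 1.60 FPKM with si-circRtn4, on 40 to 91 reads per library, and the groups overlapped. Sdhaf3 was at 1.38 to 2.10 and at 1.43 to 1.86 FPKM.

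In complex III, 8 of the 9 members were below 0, with a median of -0.17 (-0.08 under TPM), and 1 fell. Uqcrh, the hinge protein beside cytochrome c1 (ENSMUSG00000063882, minus strand, chr4:116066965-116075071), was at 60.7, 54.7 and 54.2 FPKM with si-NC and at 42.5, 44.0 and 46.4 FPKM with si-circRtn4. The groups were apart, with means of 56.6 ± 3.63 and 44.3 ± 1.95 FPKM (SD, n = 3 each). Uqcrh fell by 0.34 on the log2 scale (SE 0.0771, adjusted p = 0.0344 by limma). The call was lost under TPM (adjusted p = 0.0804) and when any 1 library was left out (adjusted p 0.0624 to 0.103). The table lists processed pseudogenes named after Uqcrh, with which reads may be shared.

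Uqcrfs1, the Rieske iron-sulphur protein, was at 94.8, 114.6 and 118.2 FPKM with si-NC and at 85.3, 97.8 and 91.6 FPKM with si-circRtn4. The lowest control lay among the si-circRtn4 values, and it was si-NC replicate 1. The log2 fold change was -0.25 (adjusted p = 0.186 by limma), and with the replicate numbers as a block the adjusted p was 0.0485. It was the sixth member called lower under the block. Cyc1, the gene of cytochrome c1, was the most abundant member of complex III. It was at 155.8, 179.5 and 172.0 FPKM and then at 136.7, 172.4 and 156.9 FPKM, with overlap (adjusted p = 0.507, limma). The core proteins Uqcrc1 and Uqcrc2 were at 98.1% and 88.6% of the control mean, the latter without overlap, and neither passed the test. The small subunits Uqcrb, Uqcr11 and Uqcr10 were at 83.4%, 86.0% and 92.2%, also without passing it.

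Uqcrq, a small subunit near cytochrome b, was the 1 member of complex III above 0. It was at 132.7, 127.9 and 141.1 FPKM with si-NC and at 139.8, 181.6 and 151.2 FPKM with si-circRtn4, with overlap (log2 fold change 0.23, 95% interval -0.03 to 0.48, adjusted p = 0.239 by limma). The ratio of Uqcrq to Uqcrh, also picked after the values were seen, was 2.18, 2.34 and 2.60 with si-NC and 3.29, 4.13 and 3.26 with si-circRtn4. Cycs, the mobile carrier cytochrome c, was at 28.1, 37.6 and 35.7 FPKM and then at 29.7, 43.3 and 34.6 FPKM. The groups overlapped widely (log2 fold change 0.08, adjusted p = 0.808 by limma).

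In complex IV, 17 of 22 tested members were below 0, with a median of -0.06, though under TPM only 9 were and the median was 0.02. The 13 tested subunits had a median of -0.11, with 11 below 0, and the 8 tested assembly factors one of -0.03, with 5 below 0. Cox7a1, the isoform of subunit VIIa known from heart and skeletal muscle (ENSMUSG00000074218, plus strand, chr7:30184144-30186078), had the largest fall of any tested member. It was at 3.84, 3.50 and 4.01 FPKM with si-NC and at 1.31, 2.04 and 1.80 FPKM with si-circRtn4. The groups were far apart, with means of 3.78 ± 0.258 and 1.72 ± 0.371 FPKM (SD, n = 3 each), so that 45.4% remained. Cox7a1 fell by 0.82 on the log2 scale (SE 0.127, adjusted p = 0.0105 by limma). The gene was sparsely covered, at 10 to 31 reads per library. The call held whichever library was left out, and it was lost with no filter on low values (adjusted p = 0.0537).

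Cox7a2, the form of subunit VIIa found in most tissues, made up 95.4% to 96.5% of the summed FPKM of both isoforms with si-NC and 97.9% to 98.4% with si-circRtn4. It was at 91.0, 96.5 and 83.6 FPKM and then at 80.6, 95.6 and 87.0 FPKM, with overlap (adjusted p = 0.816, limma). The sum of both isoforms was 94.2 ± 6.22 and 89.5 ± 7.91 FPKM (SD, n = 3 each), so the fall of Cox7a1 was small beside the pool of subunit VIIa messages. Cox7a2l, a related protein that joins complexes III and IV into supercomplexes, was at 126.8, 116.1 and 112.8 FPKM and then at 103.6, 98.5 and 122.6 FPKM, again with overlap.

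Cox6a1, the widespread form of subunit VIa (ENSMUSG00000041697, minus strand, chr5:115345642-115348981), was among the most abundant members. It was at 390.0, 373.1 and 380.2 FPKM with si-NC and at 241.2, 304.7 and 284.2 FPKM with si-circRtn4. The groups were apart by more than the spread within either, with means of 381.1 ± 8.45 and 276.7 ± 32.4 FPKM (SD, n = 3 each), so that 72.6% remained. Cox6a1 fell by 0.47 on the log2 scale (SE 0.1, adjusted p = 0.0304 by limma). Without si-NC replicate 1, 2 or 3 the adjusted p was 0.0753, 0.0921 and 0.0876, and without si-circRtn4 replicate 1 or 3 it was 0.0568 and 0.0625. Cox6a2, the muscle form of the same subunit, was at 8.67 to 9.77 FPKM and at 7.86 to 10.0 FPKM (log2 fold change -0.01, adjusted p = 0.979 by limma). Its direction changed with the scaling. Cox6a1 gave 97.5% to 97.8% of the summed FPKM of both forms with si-NC and 96.6% to 96.9% with si-circRtn4, and the sum went from 390.3 ± 8.17 to 285.9 ± 33.5 FPKM (SD, n = 3 each). Unlike subunit VIIa, the form of subunit VIa that fell was the main one.

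**Figure D4:**
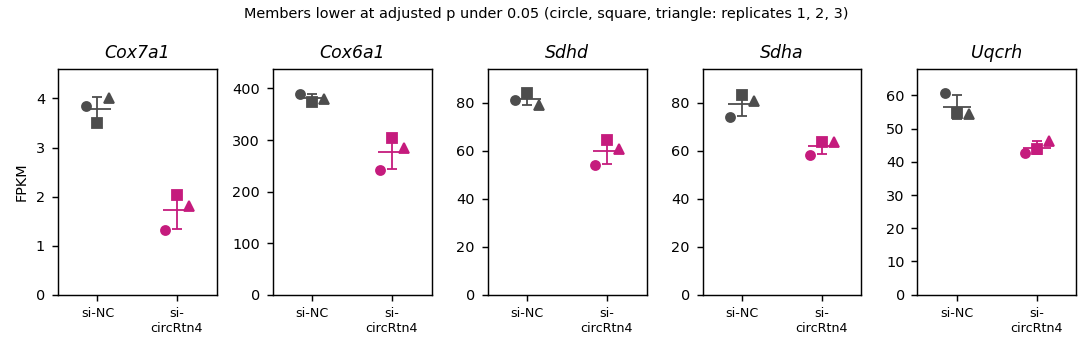
FPKM of the 5 members that fell, in each library, with the mean and SD of 3 libraries; circles, squares and triangles are replicates 1, 2 and 3. No si-circRtn4 value reaches the lowest si-NC value in any of the 5, and si-circRtn4 replicate 1 is the lowest library in each.

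The other subunits of complex IV moved less. Cox8a, the most abundant nuclear message of complex IV, was at 475.2, 457.7 and 421.5 FPKM with si-NC and at 368.7, 424.4 and 363.4 FPKM with si-circRtn4. The groups overlapped by 1 library (log2 fold change -0.23, adjusted p = 0.178 by limma). Cox6b1 was at 174.8, 168.7 and 165.2 FPKM and then at 137.2, 160.6 and 153.4 FPKM, without overlap (log2 fold change -0.17, adjusted p = 0.237 by limma). Cox5b, Cox6c and Cox7c were also lower in every si-circRtn4 library than in any si-NC library, at 94.3%, 90.8% and 92.4% of the control mean, and none passed the test. Cox5a, Cox7b2 and Cox7b lay between 93.0% (Cox7b2) and 108.8% (Cox7b), with overlap. Cox4i1, which carries a regulatory site for ATP, was at 326.1, 290.6 and 306.8 FPKM and then at 294.8, 315.2 and 334.1 FPKM (log2 fold change 0.03, adjusted p = 0.86 by limma).

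Of the forms known from single tissues, 4 were at or near 0. Cox4i2, the form of subunit IV known from lung, was at 0.589, 0.264 and 0.544 FPKM with si-NC and at 0.803, 1.14 and 1.22 with si-circRtn4, on 3 to 14 reads per library. Its values did not overlap, but it lay under the filter and was not tested. Cox6b2, of testis, rested on 1 to 5 reads and Cox8b, of muscle, on 0 to 3. Cox8c was listed at 0 in all 6 libraries, where 3 reads would have given 0.421 to 0.468 FPKM, a limit for counting error only. The remaining untested members were Cox20, at 0.393 to 1.43 FPKM sharing exon bases with Hnrnpu on the other strand, and a second Atp5o entry listed at 0.

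Among the assembly factors of complex IV, Cox19, a small protein of the copper route to complex IV, was at 10.5, 10.2 and 10.1 FPKM with si-NC and at 11.3, 13.5 and 12.9 with si-circRtn4. All si-circRtn4 values were above all controls (log2 fold change 0.27, 95% interval 0.08 to 0.46, adjusted p = 0.0874 by limma). Under TPM it passed the test, at a log2 fold change of 0.35 (adjusted p = 0.0295). Cox16 was at 2.10, 2.55 and 2.78 FPKM and then at 2.04, 1.68 and 1.93, without overlap (adjusted p = 0.207, limma), and shares exon bases on the same strand with the gene Gm20498. Cox10 and Cox15, which make the haem of complex IV, were at 97.4% and 104.0% of the control mean. Cox11, Cox14, Cox17 and Cox18 lay between 96.7% and 102.8%.

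In complex V none of the 17 tested members passed the test. At an unadjusted p under 0.05, 2 were lower, Atp5e and Atp5h, and none was higher. Those 2 make up 11.8% of the 17, near the 12.8% of all genes tested that were lower, where 13.1% were higher. Below 0 were 13 of 17, with a median of -0.11, and under TPM 10 of 17 with a median of -0.02. The 5 subunits of the catalytic F1 part, alpha to epsilon, were all below 0 with a median of -0.16, but Atp5b was at 0.01 under TPM. Atp5a1, the alpha subunit, was at 241.7, 268.1 and 275.2 FPKM with si-NC and at 211.7, 231.5 and 250.3 with si-circRtn4. The groups overlapped, and within each replicate number the si-circRtn4 library was the lower (log2 fold change -0.18, adjusted p = 0.278 by limma, 0.0867 with the block). Atp5b, the catalytic beta subunit and the most abundant message of complex V, was at 414.9, 460.9 and 479.2 FPKM and then at 370.6, 444.3 and 462.9 FPKM (log2 fold change -0.09, 95% interval -0.34 to 0.17, adjusted p = 0.67 by limma).

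The gamma, delta and epsilon subunits Atp5c1, Atp5d and Atp5e were at 89.8%, 92.0% and 83.8% of the control mean. The stalk and membrane subunits Atp5f1, Atp5h, Atp5j, Atp5j2, Atp5k and Atp5o lay between 85.6% (Atp5h) and 95.4% (Atp5f1), and in Atp5h and Atp5j2 the groups did not overlap. Atp5mpl, a small membrane subunit, and Atp5s, coupling factor B, were at 100.3% and 102.1%.

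The 3 genes Atp5g1, Atp5g2 and Atp5g3 encode the same mature c subunit of the membrane ring. Together they gave 343.9, 346.0 and 361.7 FPKM with si-NC and 284.0, 336.3 and 351.0 FPKM with si-circRtn4, so the groups overlapped. Atp5g2 made up 48.7% to 53.7% of the sum with si-NC and 51.2% to 54.6% with si-circRtn4, and Atp5g3 made up 40.8% to 44.9% and 38.4% to 41.6%. Atp5g1 was at 5.52% to 6.42% and at 5.53% to 7.26%. Its annotated length of 4912 bases covers all its exons, which lowers its FPKM. Atp5g3 had a log2 fold change of -0.21 (adjusted p = 0.323 by limma), Atp5g2 one of -0.06 (0.03 under TPM) and Atp5g1 one of 0.04, and none passed the test. Atp5l, the subunit g of the membrane part, was the highest of complex V at 0.14 (95% interval -0.11 to 0.39, adjusted p = 0.467 by limma), from 8.83 to 9.49 FPKM with si-NC and 8.86 to 11.9 with si-circRtn4.

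By role, 35 of the 42 tested subunits were below 0, with a median of -0.12 and all 5 calls, and 7 of the 12 tested assembly factors were, with a median of -0.03 and no call at the adjusted threshold. The difference between the roles was not tested. By annotated gene length, the 13 members under 1000 bases had a median of -0.22, where the other 263 tested protein-coding genes of that length had 0.04. The 17 members of 1000 to under 2000 bases and the 18 of 2000 to under 4000 bases had medians of -0.12 and -0.12, against 0.01 and 0.01 for the other genes. The 9 members of 4000 bases and over had -0.02, against -0.004. Without si-circRtn4 replicate 1 the medians of the members in these 4 classes were -0.13, -0.08, -0.04 and 0.04.

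Without that library, complex II kept 6 of 8 members below 0 with a median of -0.14, and complex III 7 of 9 with -0.14. Complex IV had 12 of 22 below 0 with -0.03, and complex V had 11 of 17 with -0.05.

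Many of these genes share a promoter region with a neighbour read the other way. Sdhd starts 98 bases from Timm8b, an import chaperone of the intermembrane space, which was at 61.9, 66.9 and 53.9 FPKM with si-NC and at 65.1, 73.6 and 65.5 with si-circRtn4. The groups of Timm8b overlapped (log2 fold change 0.16, adjusted p = 0.361 by limma). Sdha starts 29 bases from Ccdc127 (0.06, adjusted p = 0.665 by limma) and Uqcrh 198 bases from Lrrc41 (-0.01, adjusted p = 0.965 by limma). None of these 3 neighbours passed the test, and the difference within each pair was not tested. The 5 that fell share no annotated exon bases with other genes.

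Genes of the respiratory chain are known targets of NRF1, of ETS factors such as GABPA, and of YY1. Promoters from 250 bases before to 50 after the RefSeq start (GRCm38.p6) were searched on both strands for GCGCATGCG, CCGGAAG and AANATGGCG in turn. Only 45 of the 57 tested members matched an entry, under 80%, so no share over all 57 is given. Of all 32851 promoters, 1.75%, 8.86% and 2.38% held these strings. All 5 members that fell had an entry. CCGGAAG occurred in 3 of them, each time on the opposite strand as CTTCCGG, and GCGCATGCG in Cox6a1 in 2 overlapping copies, 1 on each strand. AANATGGCG occurred in none, and Sdha and Cox7a1 held none of the 3 strings. The matches are shown because 3 of the 5 genes share the same ETS letters close to their start, with 10 bases on each side and the match in capitals, all on the minus strand.
Sdhd, 46 bases before the start, chr9:50603879-50603905: cgtctcctgcCTTCCGGttcacgcttc
Uqcrh, 10 bases before the start, chr4:116075064-116075090: gtatgccgcaCTTCCGGccaggtcgcc
Cox6a1, 16 bases before the start, chr5:115348958-115348984: cccatttccgCTTCCGGcgcgccggtg
Cox6a1, 162 bases before the start, chr5:115349102-115349130: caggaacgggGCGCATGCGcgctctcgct
Among 8643 tested protein-coding genes with an entry, 21.9% held the ETS letters, so they are common in active promoters. Of the 45 tested members with an entry, 19 held them, so these letters are not particular to the members that fell.

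None of the 7 tested regulators of these genes passed the test, and 5 were below 0 with a median of -0.14. The 2 with the largest change were Esrra, the nuclear receptor ERR-alpha, at -0.27 (adjusted p = 0.152 by limma, 0.0434 with the block), and Yy1 at -0.23 (adjusted p = 0.0887 by limma, 0.0363 with the block). Esrra was at 39.5, 31.4 and 32.1 FPKM and then at 29.5, 26.2 and 28.7 FPKM, and Yy1 at 22.7, 23.5 and 24.4 and then at 19.4, 19.2 and 21.1 FPKM, both without overlap. At an unadjusted p under 0.05 from limma, 3 of the 7 regulators were lower (42.9%, against 12.8% of all genes tested). None was higher, against 13.1% of all genes. In 4 of the 7 (57.1%) every si-circRtn4 library was below every si-NC library, as in 15.5% of all genes tested. Ppargc1a, the coactivator of mitochondrial biogenesis, was at 0 or under 0.05 FPKM in every library.

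The mitochondrially encoded partners were all below 0, 6 of 6, with a median of -0.73. Of these, 2 fell (33.3%, against 4.82% of all genes tested). mt-Atp6, a subunit of the ATP synthase membrane part, was at 62.4, 84.3 and 107.7 FPKM with si-NC and at 42.0, 39.3 and 53.9 with si-circRtn4 (log2 fold change -0.88, adjusted p = 0.0371 by limma). mt-Co3, a core subunit of complex IV, was at 61.4, 43.3 and 159.5 FPKM and then at 21.8, 23.7 and 22.6 (log2 fold change -1.69, adjusted p = 0.0443 by limma). The 2 most abundant, mt-Cytb and mt-Co1, had si-NC means of 5860 and 4102 FPKM. Their log2 fold changes were smaller, at -0.365 and -0.409 (adjusted p = 0.0612 and 0.123 by limma). The others, which include both that fell, averaged 98.9 FPKM or less with si-NC, and mt-Atp8 rested on 6 to 26 reads per library. Why they lie so far below mt-Cytb and mt-Co1 was not tested. Summed FPKM over the 6 was 10660, 10230 and 9826 with si-NC and 8537, 7709 and 7131 with si-circRtn4. Each of the 6 had every si-circRtn4 library below every si-NC library, as in 15.5% of all genes tested. With the replicate block 5 were called lower (83.3%, against 9.75% of all genes tested). Without si-circRtn4 replicate 1 the median was again -0.73, and limma called none (6 lower at an unadjusted p under 0.05). Over all mitochondrial protein-coding genes, the share of reads was 2.26%, 2.19% and 2.04% with si-NC and 1.87%, 1.65% and 1.49% with si-circRtn4. The part of this shift in the values of the nuclear members was not tested.

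Of the 24 tested assembly factors outside the name rule, 17 were above 0, with a median of 0.05. Fmc1, which helps to assemble the F1 part, rose from 26.1, 27.3 and 30.3 FPKM to 40.4, 40.7 and 36.3 FPKM (log2 fold change 0.48, adjusted p = 0.017 by limma). Ttc19, a factor of complex III, rose from 5.07, 4.75 and 5.06 to 6.87, 6.28 and 6.37 FPKM (0.33, adjusted p = 0.0357 by limma). Coa5, of complex IV, fell from 31.6, 32.8 and 32.5 to 26.8, 24.6 and 27.5 FPKM (-0.29, adjusted p = 0.0468 by limma). All 3 calls were lost without si-circRtn4 replicate 1, and Coa5 also under TPM.

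Around the chain, 1 of 12 citric acid cycle enzymes fell (8.33%, against 4.82% of all genes tested) and none rose. Below 0 were 10, with a median of -0.18. With the block 3 were lower (25.0%, against 9.75% of all genes tested). The one that fell was Idh3b, a subunit of isocitrate dehydrogenase, from 46.9, 48.3 and 46.8 to 36.0, 37.1 and 38.4 FPKM (log2 fold change -0.34, adjusted p = 0.0214 by limma). No enzyme of the list was called by limma under TPM or without si-circRtn4 replicate 1 (2 and 1 lower, and none higher, at an unadjusted p under 0.05). Of 6 carriers and channels 5 were below 0, with a median of -0.09, and none passed (1 higher and none lower at an unadjusted p under 0.05). The 2 largest were Vdac3 at 0.26 (adjusted p = 0.13 by limma, 0.0361 with the block) and Vdac1 at -0.15 (adjusted p = 0.309 by limma). For comparison, 27 of 45 tested complex I subunits and factors with Nduf names were below 0, with a median of -0.03 and 1 call, Ndufv3, at -0.61 (adjusted p = 0.0057 by limma). With the block 5 of the 45 were lower (11.1%), near the 9.75% of all genes tested. The 80 tested cytosolic ribosomal protein genes were listed as short and abundant messages and were not matched to the members in length or level. Of these, 13 were below 0, the median was 0.09 and 1 rose, Rpl7a, at 0.58 (adjusted p = 0.0143 by limma).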

How the data were processed

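The authors deposited FPKM values per gene for the 6 libraries, grouped here by the sample titles, and a further 6 columns of other samples were not used. The submitters' processing notes name Bowtie 0.12.2 and the builds mm8 and mm9, whereas start and end matched GENCODE M21 for 98.3% of the 54532 genes, so coordinates are those of GRCm38. The counting tool and its use of strand are not given in the sources used here. Reads may be shared with overlapping genes or pseudogenes (Cox6c, Atp5l, Atp5k, Cox20, Uqcrh, Atp5c1 and Cycs have some in the table). Gene length covers all annotated exons. FPKM times length gave whole reads for 100% of values (tolerance 0.01).

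After a pseudocount of 1 and a log2 transform, limma (version 3.58.1, R 4.3.3; trended eBayes) was fitted to genes averaging 1 FPKM or more, and p-values were adjusted over the 12749 genes tested. This scale understates fold changes of low genes. Exact permutation tests covered the 20 assignments of libraries. Alternatives were a pseudocount of 0.1, no filter, 3 other scalings, limma-voom on recovered reads, replicate number as a block, and leaving out each library. The fit was also run on simulated reads, with independent libraries and changes larger than those of most members. That run therefore does not check the calls of smaller changes or the effect of a single outlying library.

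Deviations from the group means correlated between libraries of the same replicate number (r = 0.331, 0.19 and 0.226). Between different numbers r was at most 0.00913. Centring each group on its own mean pushes these values down once the others are positive, so they are not separate evidence of pairing. The numbers were taken as pairs in the replicate block alone, from these same values and not the labels, so the pairing behind the block is an assumption. The main limma fit and the exact tests did not use this pairing. Members named in full were those called, the 5 most positive and the 5 most negative changes, the most abundant of each complex, the catalytic or redox subunits and the paralog groups, and others were chosen by role or after their values were seen. From other lists, called genes were named, or else the 2 with the largest change. The members and lists were chosen with earlier results of these data known.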

Additional observations from a re-analysis of the deposited data

How the results depend on the processing

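With the replicate block, members called lower numbered 6, and 1243 genes were lower and 1185 higher over the whole table. With no filter on low values, limma called 0 members lower or higher (10 lower and 2 higher at an unadjusted p under 0.05), 261 genes lower and 210 higher among 28442. Under TPM the counts were 3 members lower and 1 higher, 400 genes lower and 977 higher, and the median of the members was -0.015. Limma-voom on recovered reads called the same 5 members, 722 genes lower and 903 higher. Leaving out 1 library gave 1 to 4 members lower, 0 higher, medians of -0.142 to -0.05, 212 to 416 genes lower and 157 to 406 higher. Of 312 comparisons of the 24 tested named members with 13 alternatives, 264 kept direction and side of the threshold, 27 lost the call, 2 gained one and 19 changed sign. Sign changes under TPM were Atp5b at 0.005, Atp5g2 at 0.03, Cox6a2 at 0.078 and Cox7a2 at 0.049. Cox6a2 was at 0.013 under TPM without Gm23935 and at 0.02 with limma-voom, and Cox7a2 at 0.003 with quantile normalization. With 1 library left out, Atp5b ran from -0.152 to 0.009, Atp5g1 from -0.063 to 0.096, Atp5g2 from -0.123 to 0.005, Cox4i1 from -0.013 to 0.077, Cox6a2 from -0.065 to 0.092, Cox7a2 from -0.107 to 0.016 and Cycs from -0.064 to 0.2. None of these passed the test in any alternative. The replicate block changed the call of 1 named member, Uqcrfs1. The cause of these shifts was not tested. Cox7a1 rests on 10 to 31 reads per library and Sdhaf1 on 40 to 91, so depth limits their precision.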
